A study of Homo sapiens with 39 samples.

Results

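The comparison described here sets 2 stable lines directly against each other, both derived from HCT116, an established line of human colorectal cancer. One line makes isoform 10 and the other isoform 1 of the transcription factor HNF4A (hepatocyte nuclear factor 4 alpha), each with GFP at its C-terminal end. The 3 libraries labelled HNF4alpha10-GFP and the 3 labelled HNF4alpha1-GFP were chosen by their labels, and they are 6 of the 39 libraries of the series. Isoform 1 starts with the N-terminus encoded from the upstream promoter P1 and isoform 10 with an N-terminus of the P2 class, while both end with the same C-terminus. The usual numbering of the isoforms gives these classes, which the labels do not state. Every group used here was given 2.5 µg/ml of doxycycline for 48 h, which switches the construct on, and the antibiotics that keep the constructs were taken away at induction. The parental cells, which hold no HNF4A construct, got the same treatment. Before that, zeocin was the second antibiotic of the parental cells beside blasticidin, where the lines had hygromycin B. Each isoform is 1 line with 1 insertion of the construct and no group made GFP alone, so a difference between the N-termini cannot be told apart from a difference between 2 derived lines. Poly(A) RNA was sequenced with a kit that keeps the strand. The labels number 3 replicates per line but do not say that they were separate cultures, so the p-values below measure the spread between these libraries, which may be technical.

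HNF4A is a nuclear receptor that binds DNA as a homodimer and keeps hepatocytes and the absorptive cells of the gut in their differentiated state, largely through genes of lipid transport, clotting, bile acid and fatty acid metabolism and the brush border. Its gene is read from a pair of promoters, P1 and P2. Transcripts from P1 encode an N-terminal activation domain that P2 isoforms such as isoform 7 lack, and P1 isoforms are the main forms of adult liver. In the colon both kinds occur, and loss of the P1 forms has been described in colorectal cancer.

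HNF4A mRNA itself was measured first. Total HNF4A in the isoform 10 line was 644, 627 and 713 TPM (transcript level scaled to length and to the total of each library). In the isoform 1 line it was 806, 776 and 765 TPM. The 3 values of the isoform 10 line thus lay below all 3 of the isoform 1 line, with means of 661 ± 45.4 and 782 ± 21.1 TPM (SD, n = 3), a ratio of 0.845. The exact two-sided permutation test gave p = 0.1, which is the smallest that 3 against 3 libraries allow. The parental cells had 31.5 ± 0.589 TPM (SD, n = 3), and in each line the row of its own isoform held at least 99.4% of the total. The part of this gap in the differences below was not tested.

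Libraries of 1 line correlated across genes at 0.991 to 0.993, and libraries of the different lines at 0.981 to 0.986. Between 28159 and 29098 rows were above 0 TPM per library. All 9 markers of colorectal epithelium were expressed, and their summed level was 3286 to 3394 TPM in the isoform 10 line, 5545 to 6061 TPM in the isoform 1 line and 3345 to 3491 TPM in the parental cells. Markers of other cell types were near 0 but for single genes. Of the 5 leukocyte markers, CD68, a lysosomal membrane protein, stood at 15.4, 17.6 and 16 TPM in the isoform 10 line and 32.7, 34.7 and 31.8 TPM in the isoform 1 line, while PTPRC, CD3E and LYZ reached at most 0.271 TPM in the libraries of both lines. The summed leukocyte markers were 17 to 19.3 TPM and 32.9 to 35.9 TPM. Of the hepatocyte markers ALB, the main plasma protein of the liver, was at or below 0.519 TPM and FGA was listed at 0, and the hepatocyte sum was 17.8 to 20.0 TPM and 13.4 to 14.7 TPM, nearly all of it CPS1. The fibroblast sum was 12.8 to 13.9 and 12.7 to 14.6 TPM, and the endothelial sum 3.03 to 3.66 and 5.24 to 6.93 TPM.

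At a minimum difference of 1 in size, more genes were called lower than higher in the isoform 10 line. Differences are given on the log2(TPM + 1) scale as isoform 10 minus isoform 1, a scale on which changes of weakly expressed genes come out too small. A gene is called where limma's Benjamini-Hochberg adjusted p is under 0.05 and the difference is at least 1 in size. Of 15002 rows tested, 159 were called (1.06%): 112 were lower in the isoform 10 line (0.747%) and 47 were higher (0.313%). The 3 libraries of one line all lay beyond the 3 of the other for 110 of the 112 and for 45 of the 47. Over all tested rows the isoform 10 libraries lay above in 35.6% and the isoform 1 libraries in 15.6%. The typical lower call had 6.21 TPM in the isoform 10 line, 21.0 TPM in the isoform 1 line and 2.82 TPM in the parental cells (medians over the genes). For the higher calls the same medians were 8.51, 2.77 and 6.66 TPM. Of the lower calls 90 are protein-coding, and 14 of them reached a difference of 2 in size, against 3 of the higher calls.

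**Figure D1:**
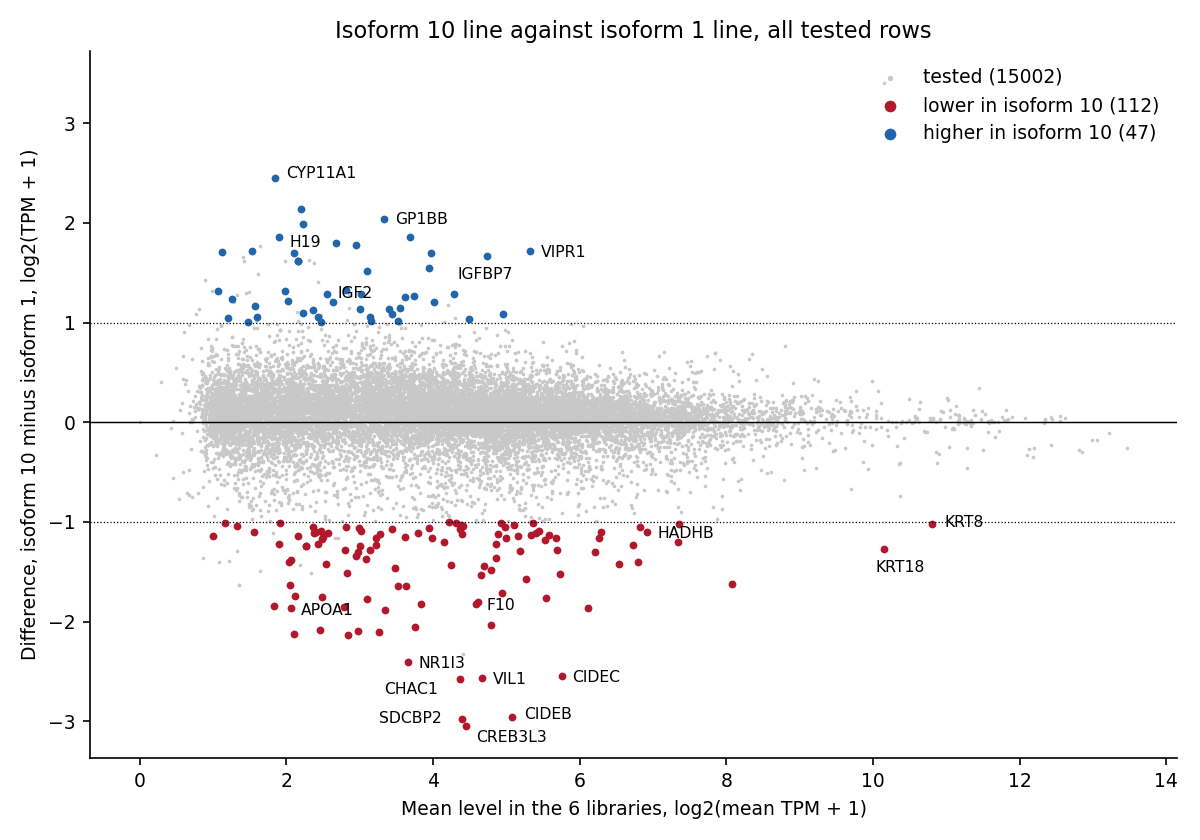
Difference between the isoform 10 and isoform 1 lines (y axis, log2(TPM + 1)) against the mean level of the 6 libraries (x axis, log2 scale) for 15002 rows, 1 point per row. Red points are the 112 rows called lower and blue points the 47 called higher in the isoform 10 line, and dotted lines mark a difference of 1: the far end of the lower side holds CREB3L3, SDCBP2 and CIDEB near -3, and the far end of the higher side CYP11A1 at 2.45.

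Of the higher calls 27 are protein-coding and 14 are small RNAs. Small RNAs made up 4 of the lower calls and 467 of the tested rows. Their summed level was 8850 to 9586 TPM in the isoform 10 line, 7401 to 8239 TPM in the isoform 1 line and 9355 to 9922 TPM in the parental cells, in libraries enriched for poly(A). The part of this shift in the 14 calls was not tested. The median difference over all tested rows was 0.08, and median-of-ratios scaling brought it to 0.00 (-0.001). With no minimum difference 4279 rows were higher (28.5%) and 1827 lower (12.2%) at the same adjusted p. That split of small differences depended on the scaling, since 70.1% of the rows past the test were higher as deposited and 47.2% after scaling (2658 higher and 2976 lower).

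CREB3L3, SDCBP2 and CIDEB had the largest differences among the lower calls. CREB3L3 (chr19:4153601-4173054, plus strand, GRCh38 with GENCODE 29) encodes a liver and gut transcription factor bound to the endoplasmic reticulum that acts on genes of triglyceride metabolism. It stood at 3.43, 4.21 and 3.47 TPM in the isoform 10 line and at 43.3, 36.6 and 33.8 TPM in the isoform 1 line. The parental cells had 0.210 ± 0.0357 TPM (SD, n = 3), so both lines lay above the host cells and the isoform 1 line by far the most. The difference was -3.04 ± 0.16 (SE, limma adjusted p = 4.78e-15). SDCBP2, which encodes syntenin-2, a PDZ-domain protein, was at 3.96, 2.95 and 4.27 TPM against 39.7, 29.5 and 39.8 TPM. That is a difference of -2.98 ± 0.19, with 0.390 ± 0.141 TPM (SD, n = 3) in the parental cells.

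CIDEB and CIDEC belong to the CIDE family of lipid droplet proteins, which promote lipid transfer between droplets and, for CIDEB, the lipidation of very-low-density lipoprotein. CIDEB (chr14:24305096-24311430, minus strand) was at 6.74, 6.19 and 7.07 TPM in the isoform 10 line and at 60.4, 52.0 and 63.2 TPM in the isoform 1 line. CIDEC (chr3:9866711-9880254, minus strand) was at 15.3, 14 and 14.9 TPM against 99.6, 86.0 and 87.7 TPM. The differences were -2.95 and -2.55. Parental levels were 2.28 ± 0.123 TPM for CIDEB and 0.0745 ± 0.0461 TPM for CIDEC (SD, n = 3), so the isoform 10 line carried CIDEC mRNA well above the host cells while staying below the isoform 1 line. These were the only 2 called members of the lipid droplet list, of which 13 of 18 were tested. At the adjusted p alone, 7 were lower and 3 higher, and the median was -0.13. Without the first isoform 1 library 5 were lower and the median was -0.082. PLIN3, a perilipin that coats nascent droplets, fell from 225 ± 18.3 to 138 ± 3.25 TPM (SD, n = 3). HILPDA, an inhibitor of the lipase ATGL, rose from 15.5, 17.5 and 16.5 TPM to 23.3, 22.7 and 20.6 TPM.

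Promoter sequences of lower calls are shown because some hold CAAAGTCCA, the core of the motif described for HNF4 homodimers. It was searched on both strands in RefSeq promoter windows (GRCh38.p14, 250 bases before to 50 after a transcript start). Of the 112 lower calls 72 had at least 1 window, and 8 of their 94 windows (8.51%) held it. Among the higher calls 20 of 47 had a window and 0 of 25 windows held it. The share was 0.319% over the 15051 windows of all tested genes (48 windows) and 0.384% over all 35116 windows. The looser form CAAAGNNCA, which includes every match of the first, was in 12.8% of the lower windows, 8% of the higher windows (2 of 25) and 3.98% of the windows of all tested genes. A match describes letters in the window and is not a measured binding site. The 8 matches lie in CIDEB, SDCBP2, F10, GPR35, APOBEC1, SLCO2B1, MISP and RAB17, and 4 of these genes are named only because their windows match. The stretches below run 5′ to 3′ on the strand of the gene, with the motif in capitals. TGGACTTTG is the same motif read on the opposite strand, and positions are counted from the transcript start.
CIDEB, chr14:24307979-24308078, minus strand, motif from -55: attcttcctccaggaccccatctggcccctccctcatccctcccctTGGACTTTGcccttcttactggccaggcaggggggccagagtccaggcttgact
SDCBP2, chr20:1313674-1313740, minus strand, motif from -21: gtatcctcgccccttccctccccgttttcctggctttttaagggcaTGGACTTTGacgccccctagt
F10, chr13:113122787-113122816, plus strand, motif from -2: agctggggcgTGGACTTTGctccagcagcc
GPR35, chr2:240605349-240605429, plus strand, motif from -35: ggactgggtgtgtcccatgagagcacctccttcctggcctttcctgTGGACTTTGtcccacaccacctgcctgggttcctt
APOBEC1, chr12:7665909-7665982, minus strand, motif from -28: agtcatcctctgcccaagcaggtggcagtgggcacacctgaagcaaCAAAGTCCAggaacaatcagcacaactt
SLCO2B1, chr11:75159717-75159816, plus strand, motif from -69: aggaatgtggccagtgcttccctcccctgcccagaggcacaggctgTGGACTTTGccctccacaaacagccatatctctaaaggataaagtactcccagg
MISP, chr19:750954-751053, plus strand, motif from -112: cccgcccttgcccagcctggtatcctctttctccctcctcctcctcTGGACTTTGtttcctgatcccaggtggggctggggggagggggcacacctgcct
RAB17, chr2:237590723-237590752, minus strand, motif from -8: atgaccactgTGGACTTTGccctgaaacct

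Differences of the 8 genes with this motif ranged from -2.98 (SDCBP2) to -1.09 (SLCO2B1). APOBEC1, which encodes the enzyme that edits apolipoprotein B mRNA in the gut, was at 14, 13.8 and 12.2 TPM in the isoform 10 line and at 48.0, 41.8 and 48.2 TPM in the isoform 1 line. In the parental cells it was listed at 0, 0.121 and 0 TPM, so its mRNA was present in both lines and nearly absent from the host. MISP, a protein of the spindle cortex and microvilli, was at 29.5, 28.1 and 29.4 against 77.0, 65.2 and 74.7 TPM. RAB17, a small GTPase of epithelial cells, was at 29.5, 28.0 and 34.3 against 73.8, 63.2 and 72.0 TPM. The organic anion transporter gene SLCO2B1 was at 5.06, 3.26 and 4.20 against 11.3, 7.98 and 10.7 TPM. In all 4 the lines did not overlap, and the differences were -1.71, -1.28, -1.16 and -1.09.

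The list of established HNF4A targets in gut and liver has 21 genes, of which 5 passed the filter of a mean of 1 TPM over the 39 libraries. VIL1, APOA1, F10 and LGALS4 were called lower and MTTP was not. The filter keeps members that are high in some lines, such as APOA1 with means of 5.54 and 3.74 TPM in isoforms 1 and 2, so these calls are no count for the list. VIL1 (chr2:218419092-218453295, plus strand) encodes villin, the actin-bundling protein of microvilli, and was at 7.06, 5.51 and 6.55 TPM in the isoform 10 line and at 44.2, 38.2 and 45.6 TPM in the isoform 1 line, a difference of -2.57 ± 0.17 (SE). APOA1, the main protein of high-density lipoprotein, was at 0.731, 0.524 and 1.13 TPM against 6.75, 4.75 and 5.14 TPM, a difference of -1.87. The clotting factor X gene F10 was at 9.23, 9.27 and 10.1 TPM against 39, 34.7 and 35.3 TPM, a difference of -1.82. Its parental level was 9.25 ± 0.569 TPM (SD, n = 3), close to the mean of 9.54 TPM in the isoform 10 line, while VIL1 had 0.554 ± 0.112 TPM in the host.

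LGALS4, a galectin of the gut epithelium, was the fourth, at 3.87, 4.00 and 4.50 TPM against 12.1, 10.1 and 12.3 TPM (-1.28). The fifth, MTTP, which loads lipid onto apolipoprotein B, had 1.31 ± 0.298 and 1.27 ± 0.156 TPM (SD, n = 3) with overlapping libraries. The other 16 targets were too low over the series to be tested. Of those, APOA4, an apolipoprotein of chylomicrons, was at 0.101, 0.115 and 0.104 TPM in the isoform 10 line and at 3.85, 1.58 and 2.14 TPM in the isoform 1 line. APOC3, an inhibitor of lipoprotein lipase, was at 0.490, 0.595 and 0.491 TPM against 3.55, 1.61 and 2.53 TPM. TM4SF5, a tetraspanin-like membrane protein, was at 0.523, 0.496 and 0.759 TPM against 3.89, 2.93 and 3.54 TPM. These 3 were picked out after their values were seen and have no test. The isoform 1 libraries lay above in 4 of the 16 untested targets, these 3 and MUC13, and the lines overlapped in the other 12. Over all tested rows the isoform 1 libraries lay above in 15.6%. No share was computed for untested rows, so the count of 4 is not read as a result.

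Other genes of metabolism, transport and signalling stood among the largest differences. NR1I3 encodes CAR, the nuclear receptor that senses foreign compounds in liver, and was at 3.22, 2.72 and 3.08 TPM in the isoform 10 line and at 21.7, 19.2 and 19.7 TPM in the isoform 1 line (-2.40 ± 0.16, SE). The gut G protein-coupled receptor gene GPR35 was at 4.20, 3.90 and 4.63 TPM against 21.3, 18.9 and 22.3 TPM (-2.05). ENTPD8, an ectonucleotidase of the bile canaliculus and gut, was at 2.33, 2.73 and 2.82 TPM against 16.1, 13.6 and 14.2 TPM (-2.11). SLC7A7, a subunit of the basolateral transporter of cationic amino acids, was at 1.20, 0.916 and 1.13 TPM against 9.02, 6.61 and 7.97 TPM (-2.08). In these 4 genes parental means were between 0.304 and 1.38 TPM.

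HHLA2, a B7-family ligand found on gut epithelium, was at 0.592, 0.531 and 0.656 TPM against 6.00, 6.31 and 5.59 TPM (-2.13). HRCT1, a little-studied gene, was at 1.94, 1.86 and 1.18 TPM against 12.9, 9.82 and 9.30 TPM (-2.13). The annexin A2 partner gene S100A10 behaved otherwise towards the host. It was at 11.8, 10.1 and 7.86 TPM in the isoform 10 line, 43.3, 41.8 and 44.7 TPM in the isoform 1 line and 14 ± 0.0458 TPM (SD, n = 3) in the parental cells. Its mean in the isoform 10 line was thus below that of the host as well as that of the isoform 1 line. Of the drug metabolism list 13 of 39 were tested and 1 was called, SULT2B1, which sulfates cholesterol, at 28.0, 25.9 and 27.4 TPM against 66.7, 59.5 and 62.4 TPM. At the adjusted p alone 4 of these 13 were higher and 4 lower.

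**Figure D2:**
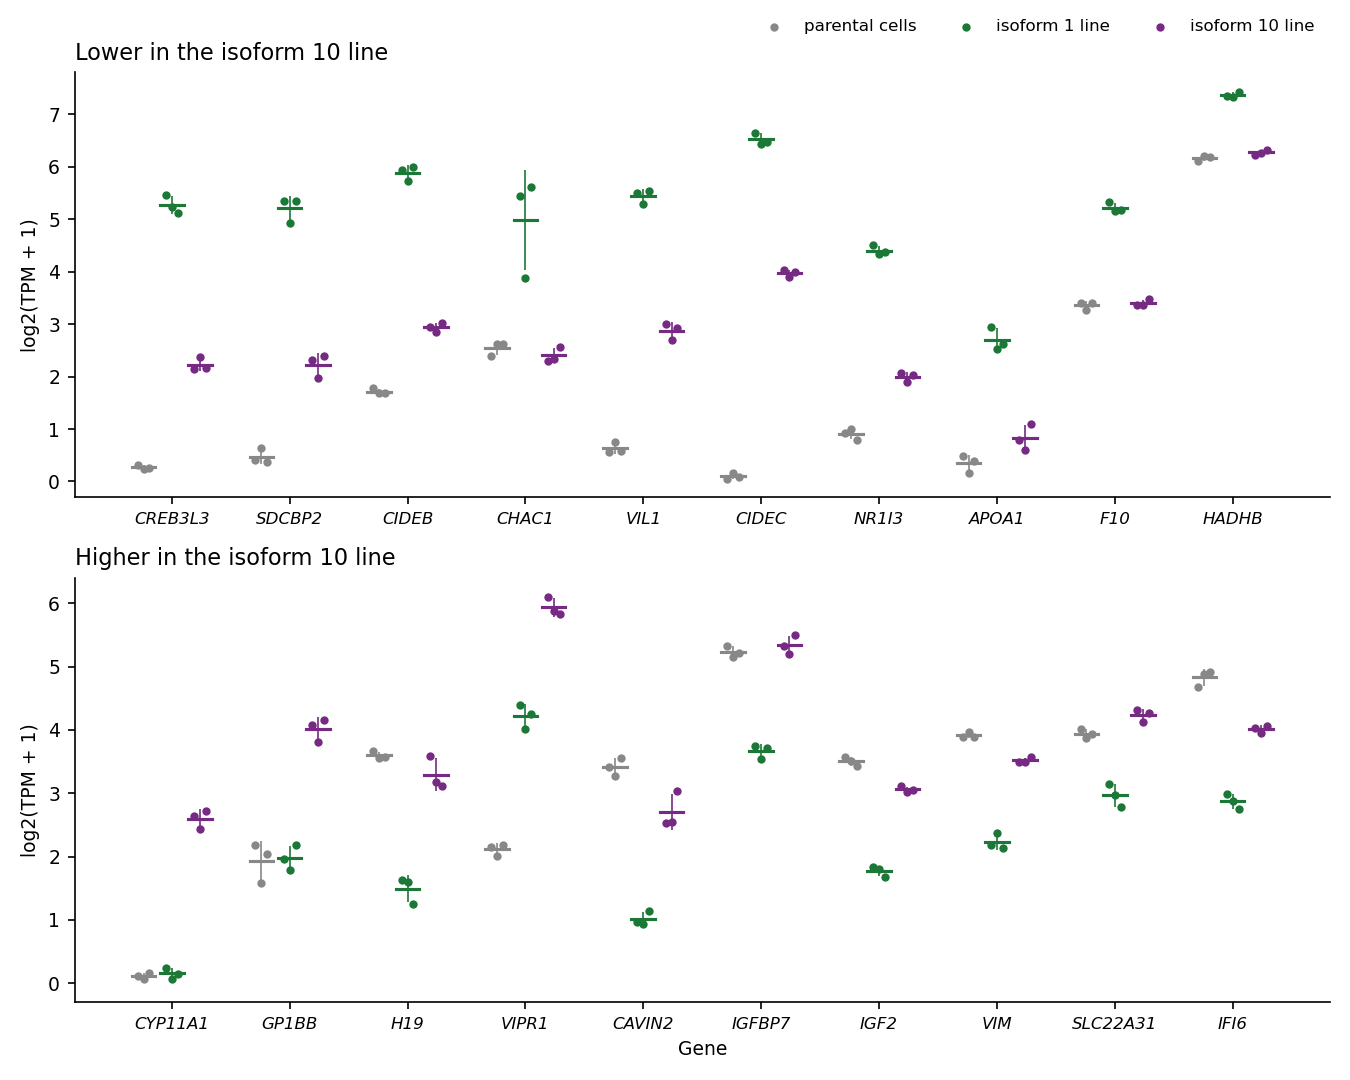
Level of 20 named genes (x axis) in each library of the parental cells (grey), the isoform 1 line (green) and the isoform 10 line (purple), as log2(TPM + 1) on the y axis; dots are libraries, bars the mean of 3 and thin lines its SD. For the 10 genes at the top, the isoform 10 libraries lie below the isoform 1 libraries, and for the 10 at the bottom the reverse holds; for CYP11A1, GP1BB and VIPR1 the isoform 10 line is also above the parental cells.

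The brush border and junction genes that passed the test were lower. In the brush border list 12 of 20 were tested, 9 were lower at the adjusted p and 0 were higher (1 higher without the third isoform 1 library), with a median of -0.55. Over all tested rows 12.2% were lower. The filter keeps members that are high in some lines, such as VIL1 with means of 42.7 and 33.3 TPM in isoforms 1 and 2 and 0.554 TPM in the host. The count and the median therefore describe the tested members and are no measure of the list. Called were VIL1 and CALML4, a myosin light chain of the intermicrovillar adhesion complex, the latter at 13.8, 12.2 and 12.9 TPM against 28.2, 26.5 and 28.4 TPM. The scaffold gene SLC9A3R1 (NHERF1) fell from 371, 342 and 362 TPM in the isoform 1 line to 230, 212 and 231 TPM in the isoform 10 line, and EZR, the membrane linker ezrin, from 557 ± 17 to 497 ± 6.06 TPM (SD, n = 3). Untested for their low mean over the series were MYO1A, the microvillar myosin 1A, at 0.462, 0.488 and 0.361 against 5.06, 4.20 and 4.79 TPM, and EPS8L3 at 0.358, 0.320 and 0.374 against 4.74, 4.13 and 3.81 TPM. Both were picked out after their values were seen.

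Of the tight junction genes 15 of 17 were tested, 6 were lower and 0 higher at the adjusted p, and 0 were called. Over all tested rows 12.2% were lower and 28.5% higher. The list as a whole barely moved, with a median of -0.04 against 0.08 over all tested rows. CLDN4 fell from 185, 170 and 176 to 107, 105 and 117 TPM and CLDN7 from 234 ± 7.52 to 183 ± 6.36 TPM (SD, n = 3), while the tested claudin CLDN3 had a difference of 0.01. Keratins fell together: 5 of 7 were tested, all 5 were lower at the adjusted p and 3 were called, with a median of -1.03. The partner keratins of simple epithelia were the most abundant. KRT18 was at 653, 660 and 685 TPM in the isoform 10 line and at 1638, 1493 and 1690 TPM in the isoform 1 line (-1.27 ± 0.054, SE). KRT8 was at 1162, 1163 and 1201 TPM against 2491, 2219 and 2479 TPM (-1.03). For both, the isoform 10 libraries were also below the parental means of 828 ± 34.0 and 1326 ± 27.4 TPM (SD, n = 3). KRT7 was at 1.80, 1.92 and 1.89 TPM against 5.48, 6.34 and 5.57 TPM. Without the first or the third isoform 1 library the KRT8 difference fell just short of the minimum. Keratins and claudins are also among the 9 epithelial markers whose sum was given above, and in bulk RNA fewer cells of a type and less RNA per cell cannot be told apart.

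Enzymes of fatty acid oxidation that passed the test were mostly lower in the isoform 10 line. Of 27 genes listed 24 were tested. At the adjusted p 12 were lower and 2 higher, and after median-of-ratios scaling 18 were lower and 1 higher. The median was -0.22, against 0.08 over all tested rows. HADHB, the thiolase subunit of the mitochondrial trifunctional protein, was the 1 called member, at 74.1, 76.1 and 79.0 TPM against 162, 160 and 171 TPM. It was the isoform 1 line that stood out, since the parental cells had 70.9 ± 2.42 TPM (SD, n = 3).

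HADHA, the other subunit of the same enzyme, fell from 196, 195 and 208 TPM to 147, 152 and 157 TPM. SLC25A20, the carnitine-acylcarnitine carrier of the inner mitochondrial membrane, was at 24.6, 24.8 and 25.9 TPM against 47.6, 47.1 and 52.3 TPM (-0.94). ACAA1, the peroxisomal thiolase, fell from 113, 116 and 113 TPM to 69.0, 73.0 and 76.7 TPM. Not all steps moved: CPT1A, which starts mitochondrial import, was at 59.6, 57.2 and 60.4 TPM against 58.4, 59.5 and 61.7 TPM, with overlapping libraries and a difference of -0.02 (limma adjusted p = 0.869). BDH1, which makes the ketone body 3-hydroxybutyrate, rose, with a difference of 0.71.

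Fatty acid uptake and activation genes moved both ways. Of 19 listed 15 were tested, 7 were higher and 5 lower at the adjusted p (5 and 6 after scaling), and 0 were called. Long-chain acyl-CoA synthetases split: ACSL5 was at 58.0, 54.6 and 61.8 TPM in the isoform 10 line and 110, 93.9 and 111 TPM in the isoform 1 line, and ACSL1 at 16.1, 15.6 and 14.5 TPM against 9.12, 8.55 and 9.17 TPM. ACSL5 was at 0.550 TPM in the parental cells (mean of 3), so both isoforms came with much more of it, whereas ACSL1 in the isoform 10 line was close to the parental 14.4 TPM. Cholesterol synthesis genes were slightly lower, with 10 of 24 lower and 3 higher at the adjusted p (17 and 1 after scaling), a median of -0.14 (-0.081 without the third isoform 10 library) and 0 called. DHCR7, the last enzyme of the pathway, fell from 242, 253 and 244 TPM to 170, 175 and 163 TPM.

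Genes of the integrated stress response were high in the isoform 1 line. CHAC1, a glutathione-degrading enzyme induced by ATF4, was at 3.91, 4.08 and 4.95 TPM in the isoform 10 line, near the parental 4.84 ± 0.530 TPM (SD, n = 3), and at 42.5, 13.8 and 48.0 TPM in the isoform 1 line. The second isoform 1 library was far below the other two. The difference was -2.58 ± 0.24 (SE, limma adjusted p = 8.15e-10), and -3.13 without that library. The same library had the lowest ATF4 and ATF3 of its line. ATF4 was at 575, 436 and 579 TPM in the isoform 1 line and 356, 344 and 355 TPM in the isoform 10 line, and ATF3 at 61.7, 41.4 and 59.9 TPM against 27.7, 26 and 24.6 TPM.

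In the list of serine synthesis and ATF4 targets 16 of 18 were tested, 12 were lower and 2 higher at the adjusted p, and the median was -0.45. Leaving out any 1 of the 6 libraries gave 10 to 12 lower and 1 to 2 higher. The serine synthesis enzyme PHGDH went the other way, at 46.7, 47.4 and 52.4 TPM against 36.2, 29.1 and 35.8 TPM. ATF3 missed the minimum difference without the first (-0.91) or the third (-0.93) isoform 1 library or without the third isoform 10 library (-0.97).

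**Figure D3:**
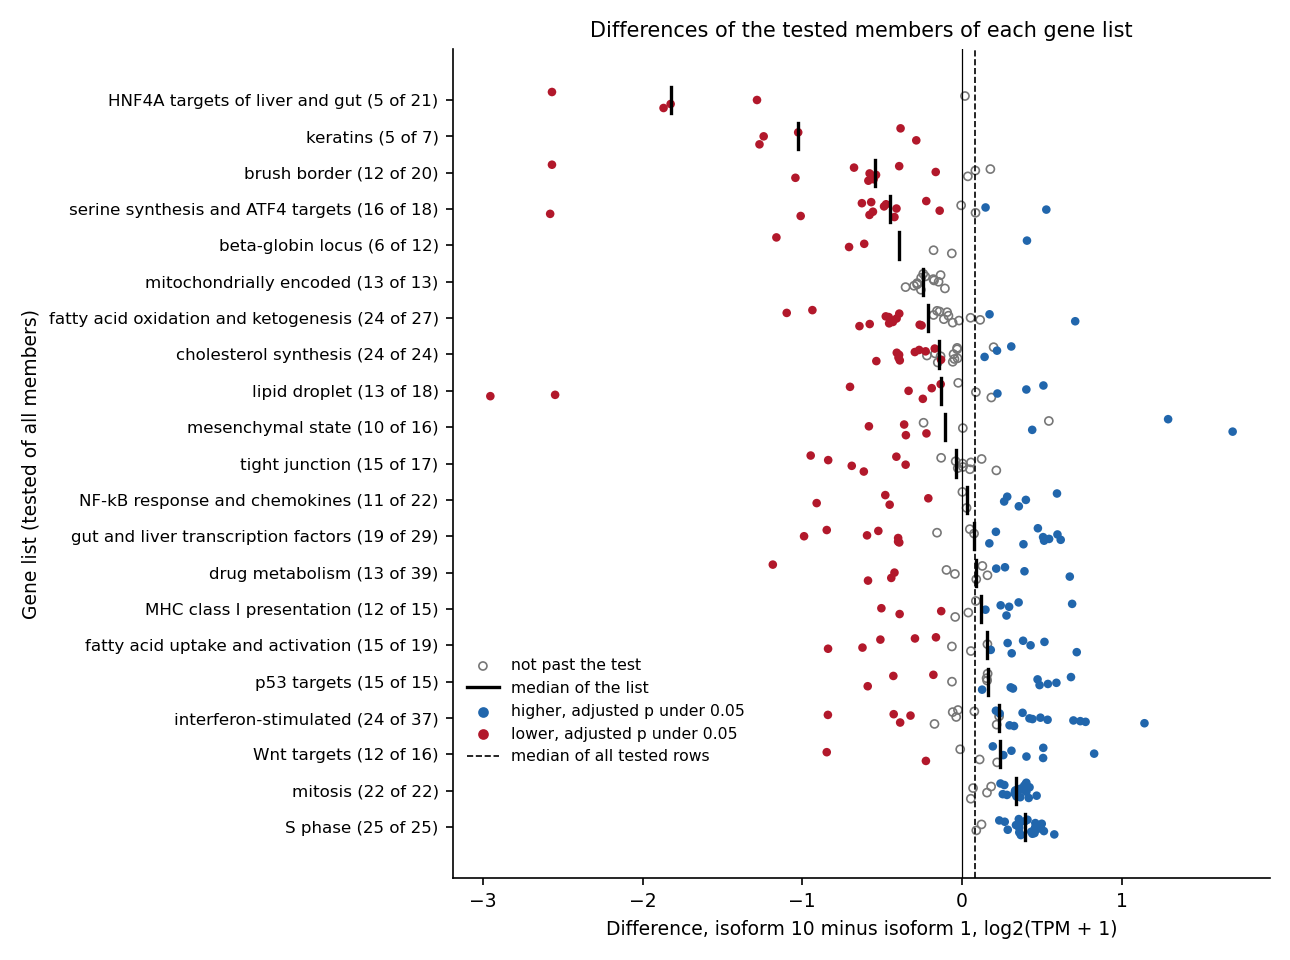
Difference between the isoform 10 and isoform 1 lines (x axis, log2(TPM + 1)) for every tested member of 21 gene lists (y axis, with tested and total members), 1 point per gene. Filled points passed the adjusted p (red lower, blue higher), open points did not, bars are list medians and the dashed line is the median of all tested rows at 0.08: keratins lie to the left, S phase and mitosis to the right. The HNF4A targets also lie to the left, but only 5 of 21 passed the filter, which keeps members high in some lines. Their median is therefore no measure of the list. The same filter limits the brush border list, of which 12 of 20 were tested.

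CYP11A1 had the largest difference among the 47 higher calls. It encodes the side-chain cleavage enzyme that starts steroid hormone synthesis (chr15:74337759-74367740, minus strand). Levels were 5.27, 4.43 and 5.56 TPM in the isoform 10 line and 0.187, 0.0465 and 0.112 TPM in the isoform 1 line. With 0.0861 ± 0.0371 TPM (SD, n = 3) in the parental cells, its mRNA was nearly absent from the host and from the isoform 1 line. The difference was 2.45 ± 0.10 (SE, limma adjusted p = 1.22e-16). VIPR1 (chr3:42489299-42537573, plus strand), a receptor for vasoactive intestinal peptide, was at 67.7, 57.5 and 56.0 TPM against 20.0, 15.2 and 17.9 TPM, and at 3.33 ± 0.282 TPM (SD, n = 3) in the parental cells. The isoform 10 line was thus highest and the host lowest.

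GP1BB, SEPT5 and their readthrough row SEPT5-GP1BB overlap on chromosome 22, so how reads were shared out among them is uncertain. GP1BB, a platelet glycoprotein chain, was at 16, 12.9 and 16.8 TPM against 2.89, 2.46 and 3.54 TPM, and the septin gene SEPT5 at 24.1, 21.5 and 23.4 TPM against 7.62, 5.05 and 6.80 TPM. Parental means of 2.88 TPM and 6.66 TPM were near the isoform 1 line for both. The differences were 2.04 for GP1BB, 1.69 for SEPT5 and 1.86 for the readthrough row, which count as 1 locus.

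The other named higher genes had lower means in the isoform 1 line than in the host, and 4 of them had means near or above the host's in the isoform 10 line. IGFBP7, a secreted IGF-binding protein, was at 38.9, 35.8 and 44.1 TPM in the isoform 10 line, 12.4, 10.7 and 12.2 TPM in the isoform 1 line and 36.6 ± 2.37 TPM (SD, n = 3) in the parental cells. SLC22A31, an organic ion transporter-like gene, was at 18.8, 16.4 and 18.3 TPM against 7.80, 6.88 and 5.88 TPM, with 14.4 ± 0.798 TPM in the host. The kinase gene DYRK3 was at 13.4, 13.7 and 13.5 TPM against 5.00, 6.21 and 5.67 TPM (host 13.6 TPM), and TMEM121 at 7.33, 7.78 and 7.95 TPM against 3.00, 2.57 and 2.73 TPM (host 7.96 TPM). Differences of the 4 were between 1.14 and 1.67.

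Of the mesenchymal list 10 of 16 were tested and 2 were called, both higher. VIM, the intermediate filament vimentin, was at 10.2, 10.3 and 10.9 TPM against 3.52, 4.17 and 3.38 TPM (1.29). CAVIN2, a coat protein of caveolae, was at 4.80, 4.85 and 7.18 TPM against 0.955, 0.905 and 1.20 TPM (1.70). Both were below the host, at 14.1 ± 0.461 and 9.71 ± 1.03 TPM (SD, n = 3). The list did not move as 1 group, since 3 members were higher and 4 lower at the adjusted p. Among the lower were CAV1, the main caveolar protein, at 154 ± 20.7 against 196 ± 2.79 TPM (SD, n = 3), and CAVIN1 at 74.7 ± 1.24 against 87.4 ± 4.35 TPM. CDH1, the epithelial cadherin, was at 26.2, 25.6 and 28.5 TPM in the isoform 10 line, 60.0, 53.6 and 61.0 TPM in the isoform 1 line and 31.0 TPM in the host.

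A run of neighbouring genes on chromosome 11 was higher in the isoform 10 line, a pattern noticed after the values were seen. Between chr11:1838989 and chr11:2149603 (GRCh38) lie TNNI2, LSP1, H19 and IGF2, all called higher. H19, the maternally expressed long noncoding RNA of the imprinted domain, was at 11.0, 8.05 and 7.64 TPM against 2.09, 2.04 and 1.39 TPM (1.80 ± 0.15, SE). IGF2, the insulin-like growth factor gene expressed from the paternal copy, was at 7.61, 7.10 and 7.30 TPM against 2.58, 2.48 and 2.20 TPM (1.29 ± 0.087). The parental cells had 11.1 ± 0.484 and 10.3 ± 0.610 TPM (SD, n = 3), so the isoform 10 line was nearer the host than the isoform 1 line.

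TNNI2, a fast-muscle troponin, was at 5.56, 4.46 and 3.91 TPM against 1.5, 1.28 and 1.00 TPM, and LSP1, an actin-binding protein, at 3.43, 2.69 and 3.25 TPM against 0.897, 1.11 and 0.521 TPM. SYT8, upstream of TNNI2, differed by 0.95 and so was not called, and MRPL23, which lies between LSP1 and H19, by 0.08 (limma adjusted p = 0.185). The lower calls had neighbours too. S100A14 and S100A16 lie 1110 bases apart on chromosome 1 and differed by -1.63 and -1.06, and KRT8 and KRT18 adjoin on chromosome 12. S100A14, an epithelial calcium-binding protein, was at 134, 135 and 125 TPM in the isoform 10 line, 432, 372 and 420 TPM in the isoform 1 line and 15.2 to 17.3 TPM in the host.

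Cell cycle genes were higher in the isoform 10 line by small amounts. All 25 S phase genes were tested, 23 were higher and 0 lower at the adjusted p, none was called, and the median was 0.40 against 0.08 over all rows. After scaling 20 were higher. PCNA, the sliding clamp of DNA polymerase, was at 452, 454 and 398 TPM in the isoform 10 line, 304, 336 and 306 TPM in the isoform 1 line and 567 ± 16.6 TPM (SD, n = 3) in the host. CCNE2, the cyclin E2 gene, had the largest difference of the list at 0.58. Among 22 mitosis genes 18 were higher and 0 lower (15 higher after scaling), with a median of 0.34. BUB1B, a spindle checkpoint kinase, was at 73.4, 73.6 and 66.1 TPM against 48.6, 55.9 and 48.9 TPM, and the parental mean was 95.9 TPM. The cyclin-dependent kinase inhibitor CDKN1A was lower, at 233, 217 and 230 TPM against 363, 331 and 331 TPM (host 104 TPM), while 8 of the 15 p53 targets were higher and 3 lower (5 and 3 after scaling).

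Interferon-stimulated genes moved in both directions. Of 37 listed 24 were tested, 13 were higher and 4 lower at the adjusted p and 1 was called, with a median of 0.23. The called gene was IFI6, an antiviral protein of the endoplasmic reticulum and mitochondria, at 15.4, 14.5 and 15.7 TPM against 6.90, 6.38 and 5.73 TPM. IFITM3, a membrane protein that blocks virus entry, rose from 288, 296 and 285 TPM to 376, 387 and 404 TPM. ISG15, the ubiquitin-like modifier, fell from 194 ± 12.0 to 154 ± 2.77 TPM (SD, n = 3). Sums over the 37 genes were 828 to 856 TPM in the isoform 10 line, 736 to 749 TPM in the isoform 1 line and 807 to 853 TPM in the host.

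The other lists showed small shifts or none. Over all tested rows 28.5% were higher and 12.2% lower at the same adjusted p. In the MHC class I list 12 of 15 were tested, with 6 higher and 3 lower (4 and 3 after scaling, with a scaled median of 0.03). HLA-C was at 235 ± 9.38 against 257 ± 9.09 TPM (SD, n = 3). Of the NF-kB list 11 of 22 were tested, with 5 higher and 4 lower (4 and 4 after scaling, with a scaled median of -0.02). Without the second isoform 10 or the third isoform 1 library 2 were lower. IL32, an inflammatory cytokine, was at 75.0, 71.3 and 74.0 TPM against 148, 122 and 148 TPM, with 0.424 ± 0.111 TPM in the host. Its difference of -0.91 stayed under the minimum. Of 12 Wnt targets tested 7 were higher and 2 lower (5 and 2 after scaling), with a median of 0.24. The Wnt-inactivating enzyme NOTUM was at 11.3, 9.81 and 10.3 TPM against 5.79, 5.94 and 4.71 TPM, and the progenitor factor SOX9 went the other way, at 11.0, 10.8 and 9.26 TPM against 20.9, 20.5 and 16.9 TPM.

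Of the gut and liver transcription factors 19 of 29 were tested, 9 were higher and 7 lower (7 and 8 after scaling), and 0 were called. KLF4, which marks differentiated gut epithelium, was at 21.9, 20.8 and 19.6 TPM in the isoform 10 line and at 44.5, 38.1 and 44.0 TPM in the isoform 1 line (-0.99). NR5A2 (LRH-1) was at 47.9, 48.8 and 47.1 TPM against 29.2, 31.8 and 33.1 TPM, and FOXA3 at 7.41, 8.31 and 7.75 TPM against 4.65, 4.99 and 4.60 TPM. HNF4G, the paralogue of HNF4A, was at 4.80, 4.20 and 4.52 TPM against 2.71, 3.24 and 2.68 TPM. The 3 were thus higher without overlap, by 0.51 to 0.62. Of the beta-globin locus list 6 of 12 were tested, 1 was higher and 3 lower. TRIM6, an E3 ligase gene in that region, was called lower at 19.7, 18.7 and 18.0 TPM against 44.0, 44.3 and 41.5 TPM, while its neighbour TRIM5 was higher at 21.6 ± 1.02 against 16.1 ± 0.659 TPM (SD, n = 3). Mucins had 4 of 18 members tested and 0 past the test, and all 13 mitochondrially encoded genes were tested with 0 past it, at a median of -0.24. All 13 differences were below 0 (-0.353 to -0.106). Their sums were 68136 to 71175 TPM in the isoform 10 line and 75382 to 84604 TPM in the isoform 1 line. The fit shares the spread of all 39 libraries, and ATP6 had an SD of 3018 TPM in the isoform 7 line against 215 and 914 TPM in these. Equal levels are therefore not shown.

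The same pair of N-termini was compared on the other C-termini, in lines that share no library with the 6. By the usual numbering, isoforms 11 and 2 carry an insertion of 10 residues in the C-terminal region and isoforms 12 and 3 a shortened C-terminus. HNF4A mRNA was not compared between the lines of these isoforms. Isoform 11 minus isoform 2 gave 207 calls (1.38%), 154 lower (1.03%) and 53 higher (0.353%). Of the 112 genes lower in the isoform 10 line, 62 (55.4%) were also lower there, which is 40.3% of that list. Their median difference in the isoform 11 and 2 pair was -1.10. Of the 47 higher genes 10 (21.3%) were shared, 18.9% of the other list, with a median of 0.42. Across all tested rows the differences of the 2 pairs correlated with r = 0.481 (Spearman 0.423), where genes are not independent replicates. Not every list kept its direction in the isoform 11 and 2 pair. At the adjusted p, cholesterol synthesis had 13 higher and 2 lower, and Wnt targets 1 higher and 5 lower. Keratins had 2 higher and 1 lower, epithelial markers 4 higher and 1 lower, and tight junction genes 4 higher and 3 lower. Fatty acid oxidation had 1 higher and 17 lower, brush border 1 and 7, S phase 9 and 2, and mitosis 10 and 0.

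Isoform 12 minus isoform 3 gave 39 calls (0.26%), 19 lower (0.127%) and 20 higher (0.133%), but 59 without the first isoform 3 library. It shared 15 of the 112 lower genes (13.4%, and 78.9% of its 19) and 3 of the 47 higher genes. The medians of the lower and higher genes in this pair were -0.55 and 0.29, and r across all tested rows was 0.362. CREB3L3 differed by -3.10 in the isoform 11 and 2 pair and by -1.28 in the isoform 12 and 3 pair, beside the -3.04 given above. CIDEB differed by -2.83 and -2.41, VIL1 by -2.21 and -1.91, F10 by -1.82 and -1.48, and HADHB by -1.10 and -0.63. The isoform 3 libraries spread widely, with CIDEB at 25.5 ± 10.3 and VIL1 at 18.0 ± 7.12 TPM (SD, n = 3). CYP11A1 was as much higher in isoform 11 as in isoform 10, with 5.46 against 0.0757 TPM (means of 3) and a difference of 2.58, but differed by only 0.29 between isoforms 12 and 3. VIPR1 differed by 2.32 and 0.50.

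**Figure D4:**
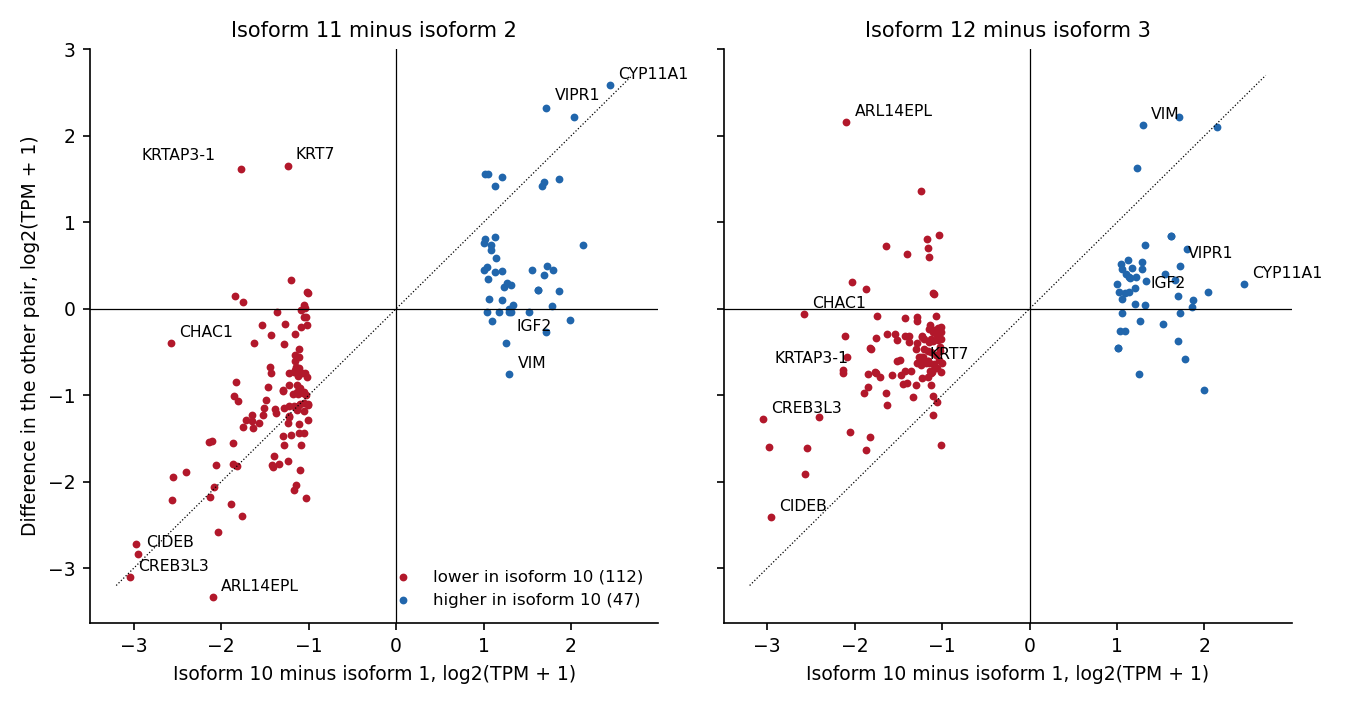
Differences of the 159 called genes in the isoform 10 and isoform 1 pair (x axis, log2(TPM + 1)) against those in the isoform 11 and 2 pair (left) and the isoform 12 and 3 pair (right, y axes on the same scale), 1 point per gene; the dotted line marks equal differences. On the left most red points lie below 0 and KRT7 and KRTAP3-1 lie above 1.5; on the right the points lie nearer to 0 and ARL14EPL and VIM lie above 2.

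The difference between the first 2 pairs was tested directly, as isoform 10 minus isoform 1 against isoform 11 minus isoform 2. It was called for 152 rows (1.01%), 98 above 0 (0.653%) and 54 below 0 (0.36%), among them 15 of the 112 lower genes and 10 of the 47 higher. Against isoform 12 minus isoform 3 it was called for 110 rows (0.733%), 39 above 0 (0.26%) and 71 below 0 (0.473%), among them 35 of the lower and 17 of the higher genes. The lower and higher genes were picked for the isoform 10 minus isoform 1 difference, which is 1 side of both tests. Their counts among these rows are therefore not read as a result. KRT7 and KRTAP3-1, a hair keratin-associated protein gene, reversed between pairs. KRT7 had means of 1.87 and 5.79 TPM in isoforms 10 and 1 but 6.10 and 1.25 TPM in isoforms 11 and 2, a difference of the differences of -2.90 ± 0.17 (SE, limma adjusted p = 2.86e-13). KRTAP3-1 had 2.86 and 12.3 TPM, then 3.23 and 0.369 TPM, and -3.39 ± 0.28. These 2 were the lower genes that were called higher in isoform 11.

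The keratin partner KRT18 barely differed between isoforms 11 and 2, with -0.18 beside -1.27, and the interaction was -1.09 ± 0.076. CHAC1 and ATF3 likewise differed by -0.39 and 0.18 in that pair, with interactions of -2.19 ± 0.34 and -1.19 ± 0.16. H19 and IGF2 differed by 0.45 and -0.04 there, with interactions of 1.34 ± 0.21 and 1.32 ± 0.12. VIM differed by -0.75 (interaction 2.05 ± 0.31), although by 2.12 between isoforms 12 and 3. The isoform 3 libraries were uneven for VIM, at 4.42 ± 3.59 TPM, beside 19.7 ± 2.46 TPM in isoform 12 (SD, n = 3). FMN1, an actin-nucleating formin, had the largest interaction of the 152 called, at 3.67 ± 0.16. It was at 4.01, 3.93 and 4.67 TPM in the isoform 10 line and 2.88, 3.68 and 3.48 TPM in the isoform 1 line, a difference of 0.26 that did not pass (limma adjusted p = 0.0577), while isoforms 11 and 2 had means of 0.938 and 19.5 TPM. ARL14EPL went from 9.14, 9.58 and 16.6 TPM in the isoform 1 line to 2.21, 1.80 and 1.68 TPM in the isoform 10 line. It differed by -3.33 in the isoform 11 and 2 pair and by 2.16 in the isoform 12 and 3 pair.

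Isoform 7 has the same C-terminus as isoforms 10 and 1 and the better-known P2 N-terminus, and its line gave a further reference, with 692, 752 and 754 TPM of HNF4A. The isoform 10 and isoform 7 lines differed in 114 calls (0.76%), 89 higher (0.593%) and 25 lower (0.167%) in the isoform 10 line. This comparison shares the isoform 10 libraries with the one above, so only levels are set side by side. CREB3L3 was at 3.70 ± 0.441 TPM in the isoform 10 line and 3.65 ± 0.240 TPM in the isoform 7 line (SD, n = 3), beside 37.9 ± 4.87 TPM in the isoform 1 line. For CIDEB the means were 6.67, 4.44 and 58.5 TPM in the same order, for VIL1 6.37, 3.81 and 42.7 TPM, and for NR1I3 3.01, 2.39 and 20.2 TPM. Lipid droplet gene CIDEC was higher in the isoform 7 line, at 24.7 TPM against 14.7 TPM. H19 and VIM differed between the P2 lines, by 2.00 and 1.65 (isoform 10 minus isoform 7), as did KRT7, by -2.09.

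The authors' deposited tables compare each line with the parental cells and hold no direct comparison of the isoform 10 and isoform 1 lines. For all 159 called genes, the authors' deposited table for isoform 10 minus that for isoform 1 gave a log2 fold difference of the same sign as found here. Those tables rest on the same libraries in which the genes were called, so the shared sign is no independent check. For CREB3L3 the authors' deposited tables list log2 fold changes over parental of 3.17 in the isoform 10 line and 7.14 in the isoform 1 line.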

How the data were processed

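Per the submitters' processing notes, reads were trimmed with Trimmomatic 0.36, checked with FastQC 0.11.5, and kallisto 0.44.0, DESeq2 1.22.2 and the build GRCh38.p12 were used; their settings are not stated in any source used here. The authors deposited 1 table per group of 45446 rows with TPM for each library, and the columns were used as deposited. Each line's table further has the authors' deposited comparison with the parental cells, whose columns are a log2 fold change, the score of its test, a p-value and a mean signal in normalised counts, per the file headers; these entered no fit. TPM give no read depth, so no counting interval was computed. The only measure of depth is the authors' mean normalised counts, which summed to 54667484 for isoform 10 and 54698410 for isoform 1.

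Rows HNF4A1 to HNF4A12 were summed for HNF4A and left out of the tests. Rows averaging 1 TPM or more across the 39 libraries were kept (15002 of 45434), and limma 3.58.1 in R 4.3.3 was fitted to log2(TPM + 1) with 13 group coefficients and the mean-variance trend (26 residual degrees of freedom, median residual SD 0.094). The Benjamini-Hochberg adjustment ran over all tested rows. The fit was tested on simulated data. Gene positions are from GENCODE 29, promoters from RefSeq. Deviations of libraries with the same replicate number correlated at r = 0.025, 0.101 and 0.062, and those with unlike numbers at -0.122 to 0.051. These ranges overlap and do not settle a pairing. The labels do not say that equal numbers belong together, so the libraries were not paired.

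The genes, lists and tests were chosen with earlier results of these data known. Named were the 14 most different called genes in each direction with libraries that do not overlap and at least 5 TPM in 1 line (no pseudogenes, small RNAs or clone-based loci), in each list up to 5 called members and the 2 most abundant others, HNF4A, and the 3 largest interactions. Other members of the lists were added after their values were seen: CDH1, CD68, HADHA, SLC25A20, ACAA1, CPT1A, BDH1, ACSL1, ACSL5, DHCR7, HILPDA, PHGDH, CLDN3, CCNE2, BUB1B, NOTUM, SOX9, KLF4, NR5A2, FOXA3, HNF4G and the untested genes. Alternatives were the pseudocount, the filter, scaling, the minimum difference, the trend, fewer libraries, a replicate block and leaving out each library.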

Additional observations from a re-analysis of the deposited data

Results flagged for a closer look

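For 14 named genes the difference between isoform 10 and isoform 1 differed from that between isoform 11 and isoform 2 by limma's interaction term, at an adjusted p under 0.05 and at least 1 in size. Over all 15002 tested rows 152 did (1.01%). The named genes were picked in part for this interaction and in part for large differences between isoforms 10 and 1. The count of 14 is therefore not read as a result. The interaction was negative, so the isoform 10 line was lower relative to its P1 partner than the isoform 11 line was, for KRTAP3-1 (-3.39), KRT7 (-2.90), KRT80 (-2.20), CHAC1 (-2.19), ATF3 (-1.19), CAV1 (-1.19) and KRT18 (-1.09). It was positive for FMN1 (3.67), VIM (2.05), H19 (1.34), IGF2 (1.32), CAVIN2 (1.30), ARL14EPL (1.23) and TMEM121 (1.10). KRT80 was at 8.01 and 10.7 TPM in isoforms 10 and 1 but at 16.1 and 3.87 TPM in isoforms 11 and 2, and CAV1 at 154 and 196 TPM but at 331 and 185 TPM (means of 3 libraries). Each isoform is 1 line, so the interaction compares 4 lines.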

How the results depend on the processing

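Of 40 named called genes, 38 were called whichever library was left out, and all 40 under median-of-ratios scaling and without the trend; 11 had too little TPM to be tested at a mean of 5 TPM. With a pseudocount of 0.1 in place of 1, isoform 10 against isoform 1 gave 269 calls, 115 higher; with a mean of at least 5 TPM it gave 97 (30 higher, 67 lower). With no minimum difference it gave 6106 (4279 and 1827), and with a minimum of 2 it gave 17 (3 and 14). The higher TPM filter tests fewer rows and the other minimum moves the threshold itself; for the pseudocount the cause was not tested. Scaling gave 182 calls (37 higher, 145 lower). In the same order of pseudocount and TPM filter, isoform 10 against isoform 7 gave 244 and 59, isoform 11 against isoform 2 gave 313 and 130, isoform 12 against isoform 3 gave 68 and 21, and the interaction gave 276 and 87. Leaving out 1 library gave 156 to 178 calls in the main comparison (41 to 59 higher, 102 to 131 lower) and 32 to 59 for isoform 12 against isoform 3. A replicate block gave 162 calls (49 higher, 113 lower) in the main comparison and 23 for isoform 12 against isoform 3, where the numbers were not shown to pair the libraries. No named called gene changed sign, but under scaling the split of small differences turned from 4279 higher and 1827 lower to 2658 and 2976. Read depth is unknown, which limits genes of low TPM.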
